A study of Mus musculus with 60 samples.

Results

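The genes described are those of the cytosolic ribosomal proteins, the proteins that together with the ribosomal RNAs build the 40S and 60S subunits outside mitochondria. They were taken by symbol from 2 gene tables, as every row named Rpl, Rps or Rplp with a number and at most 1 closing letter a, x, y or l, plus Rpsa. This gave 82 of 24982 genes in each table. Of these, 77 had at least 1 FPKM in 3 or more libraries and were tested, 43 of the large subunit, 31 of the small subunit and the 3 stalk proteins Rplp0, Rplp1 and Rplp2. The other 5 (Rpl10l, Rpl32l, Rpl39l, Rpl3l and Rps4l) stayed at or below 0.57 FPKM in every library. FPKM is the number of fragments mapped to a gene, scaled by the length of its transcript and by the total of its library, so levels can be compared between genes but are shares of each library's total.

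Each ribosome holds 1 copy of nearly every ribosomal protein, and cells make them in step with ribosomal RNA. In vertebrates their messages start with a run of pyrimidines, the terminal oligopyrimidine or TOP motif, through which mTOR signalling and LARP1 control their translation. Myc raises transcription of these genes and of the factors that assemble ribosomes. Insulin, a part of the adipogenic cocktail, activates mTOR signalling, and the level of a message does not show how much of it is translated.

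The RNA, selected for poly(A) tails, came from the mouse line C3H10T1/2, whose cells behave like mesenchymal stem cells and can become fat cells. Adipogenesis was induced for 48 h in DMEM with 10% FBS that held insulin (10 µg/ml), rosiglitazone and dexamethasone (1 µM each), T3 (1 nM) and IBMX (0.5 mM), after which insulin alone stayed in the medium at 5 µg/ml. The first table holds Tet1-KO and WT cells, and the second holds cells called 23-CATA, 23-Tet1 and 23-NC, names that the labels do not explain further. Each of the 5 populations was sampled at days 0, 2, 4 and 6 with 3 libraries a group, 60 in all, so day 0 is before induction and day 2 its end. The labels do not say whether a Tet1-KO or 23 population is 1 clone. They do not name separate cultures for the 3 libraries of a group either, and the p-values then measure only the spread between these libraries, which may be technical.

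Tet1, which encodes a methylcytosine dioxygenase, stood at 0.26, 0.24 and 0.25 FPKM in Tet1-KO cells and at 0.88, 1.12 and 1.03 FPKM in WT cells at day 0, and at 0.11 FPKM or less in both from day 2 on. It stood at 5.75 to 21.6 FPKM in 23-CATA, 4.04 to 7.46 FPKM in 23-Tet1 and at most 0.12 FPKM in 23-NC libraries. Depth, read from the spacing of the lowest values, was about 13.7 to 19.3 M (mega) fragments in 23 libraries of the first table and 12.4 to 19.1 M in the 36 of the second. Ptprc and Epcam, which mark leukocytes and epithelium, stayed at or below 0.11 FPKM in every library. The list of 5 epithelial genes that holds Epcam summed to 11.2 to 13.1 FPKM in 23-Tet1 libraries at day 0. It summed to 1.43 to 2.26 FPKM in 23-NC and 1.69 to 2.18 FPKM in 23-CATA libraries there. The list of 6 macrophage and leukocyte genes that holds Ptprc summed to 125 to 132 FPKM in 23-NC libraries at day 6. In 23-CATA and 23-Tet1 libraries of that day it summed to 76.6 to 86.3 and 74.7 to 78.7 FPKM. Lyz2, a myeloid gene, was higher in Tet1-KO than in WT cells at day 0, at 34.5, 38.5 and 43.8 FPKM against 2.62, 3.86 and 3.13 FPKM (3.34 ± 0.74, adjusted p = 0.0033 by limma, on the log2 scale explained below). It made up most of the macrophage list of 6 genes, which summed to 36.0 to 45.7 FPKM there against 4.39 to 5.16 FPKM. Cd68, another gene of that list, was not called at day 0 (0.19 ± 0.39, adjusted p = 0.87) and was lower in Tet1-KO cells at day 6 (−2.20 ± 0.43, adjusted p = 0.00065). The part of these genes in the results was not tested. Tet1-KO day 6 replicate 2 stood apart, with a value above 0 for 11805 genes, where the 23 others of the first table had one for 13837 to 14954, and it is shown separately and left out of every mean and test.

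The members were among the most abundant messages of these cells. Among the 100 genes of highest mean FPKM were 51 of the 77 in the first table and 48 in the second. Mean FPKM over all libraries of the first table ran from 15.2 for Rps27 to 8908 for Rpl41, with a median of 2101. In the second it ran from 9.94 for Rps27 to 3260 for Rpl38, with a median of 1183. The 2 tables were not set against each other.

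Many members have near copies elsewhere in the genome, mostly processed pseudogenes, and this bears on how reads were assigned. In GENCODE M21 transcripts, a median of 49.3% of a member's 50-base words also occur in another gene's transcripts, and in 38 members more than 50% do. Rps20 shares 7.4%, while Rpl36 shares 81.1%, Rpl10 92.1%, Rpl9 93.3% and Rps27 98.6%. Rps27 encodes a zinc finger protein of the small subunit, and its low level stands beside its retrocopy Rps27rt, which the rule does not take: in WT cells at day 0 Rps27 had 12.4, 7.70 and 10.2 FPKM and Rps27rt 4077, 3587 and 3493 FPKM. How reads were divided between such copies could not be read from FPKM, so values of single members with a high share are uncertain. Such members described below include Rps2 (71.3%), Rps4x (72.2%), Rps10 (78.2%), Rpl13 (80.3%), Rps6 (84.6%), Rpl3 (85.6%) and Rps12 (85.7%). Rps20, Rpl22 (24.5%), Rps27l (22.4%) and Rplp2 (30.7%) rest on mostly unshared sequence.

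The starts of these genes were read for the pyrimidine run, the sequence feature that the family is known for. The windows below reach from 40 bases before the RefSeq start to 20 bases from it on (RefSeq, GRCm38.p6), written 5′ to 3′ on the strand of the gene. Capitals mark the unbroken run of C and T over the annotated start where it holds 5 or more bases. The first 5 are members with such a run, and the last 3, Rpl41, Rpl12 and Rps2, are members without one that are described below for large changes.
Rplp2 (chr7:141447611-141447670, + strand): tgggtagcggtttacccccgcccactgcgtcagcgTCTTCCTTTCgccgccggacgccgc
Rpl38 (chr11:114668540-114668599, + strand): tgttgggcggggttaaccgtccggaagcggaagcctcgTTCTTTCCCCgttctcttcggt
Rps6 (chr4:86857348-86857407, − strand): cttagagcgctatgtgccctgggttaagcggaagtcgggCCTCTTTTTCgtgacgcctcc
Rpl35 (chr2:39005112-39005171, − strand): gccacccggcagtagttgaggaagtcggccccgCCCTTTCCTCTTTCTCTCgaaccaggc
Rps27 (chr3:90213629-90213688, − strand): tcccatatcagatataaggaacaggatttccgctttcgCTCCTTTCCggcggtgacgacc
Rpl41 (chr10:128549149-128549208, − strand): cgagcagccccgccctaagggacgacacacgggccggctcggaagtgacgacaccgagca
Rpl12 (chr2:32961672-32961731, + strand): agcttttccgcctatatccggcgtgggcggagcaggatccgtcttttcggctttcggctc
Rps2 (chr17:24720023-24720082, + strand): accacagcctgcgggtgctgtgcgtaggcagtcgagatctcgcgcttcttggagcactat
A RefSeq window of 300 bases was at hand for 57 of the 77 members. A run of 5 or more pyrimidines covered the annotated start in 18 of the 57 (31.6%), against 9.2% of the other 9744 genes tested with a window. The letters CTCTTTCC, searched on both strands, lay in 9 members (15.8%) and in 3% of the other genes. CCGGAAG, the core of sites bound by ETS factors, lay in 23 members (40.4%) and in 18.7% of the others. The E-box CACGTG lay in 5 members (8.8%) and in 10.3% of the others, and TATAAA in 5 members (8.8%) and in 6.7%. The run depends on where the start was annotated, and these matches describe letters only. Of other members described below, GENCODE M21 (GRCm38) places Rplp1 at chr9:61913284-61914542 on the − strand, Rpl22 at chr4:152325742-152334071 on the + strand, Rpl26 at chr11:68901583-68906989 on the + strand, Rpl30 at chr15:34440505-34443640 on the − strand and Rps27l at chr9:66946086-66949516 on the + strand.

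The summed FPKM of the members gave the first view of each group. At day 0 the sums in Tet1-KO cells were 211283, 227910 and 146421, at day 2 193502, 249540 and 249056, at day 4 259447, 141014 and 287054, and 231800 and 268965 in the pair of libraries kept at day 6. Before induction WT cells had sums of 131141, 110660 and 112310, then 284898, 250861 and 248219 at day 2, 133963, 116016 and 109678 at day 4 and last 107163, 120698 and 94923 at day 6. Tet1-KO libraries lay above all WT libraries at days 0, 4 and 6, and the groups overlapped at day 2. An exact permutation test of the sums gave p = 0.1, 0.3, 0.1 and 0.2 at days 0, 2, 4 and 6. The smallest p it can give is 0.1 for 3 against 3 libraries and 0.2 for 2 against 3. Members took 24.6%, 26.7%, 23.5% and 25.6% of a Tet1-KO library's FPKM at days 0, 2, 4 and 6, and 18.7%, 27.1%, 13.9% and 13.6% of a WT library's. As deposited, the summed FPKM of WT cells thus stood at 2.21 times its day 0 mean at day 2. At days 4 and 6 it stood at 1.02 and 0.912 times that mean. The Tet1-KO means at days 2, 4 and 6 were 1.18, 1.17 and 1.28 times their day 0 mean. The ratio of Tet1-KO to WT was 1.65, 0.883, 1.91 and 2.33 at days 0, 2, 4 and 6. After dividing libraries by median-ratio size factors, WT means at days 0, 2, 4 and 6 were 93353, 285444, 146720 and 107841. Tet1-KO means were then 168497, 217314, 249811 and 251769. How far WT cells came back by day 4 thus depends on scaling. The libraries of Tet1-KO cells spread widely: replicate 3 was the lowest of day 0 and replicate 2 the lowest of day 4.

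In the second table the mean sums were lower on every later day than at day 0. In 23-CATA cells the group means were 104186 ± 4605, 83826 ± 8936, 72843 ± 9981 and 78762 ± 4009 at days 0, 2, 4 and 6. In 23-Tet1 cells they were 131794 ± 10702, 77895 ± 5743, 67985 ± 591 and 76103 ± 4430.1. In 23-NC cells they were 124480 ± 33552, 101195 ± 4611, 77035 ± 15349 and 88584 ± 11018. In 23-NC cells at day 0, replicate 1 with 163191 stood above the other 2 with 106474 and 103775. Every comparison with 23-NC at day 0 rests in part on it. The members' share of a library's FPKM was 18.1%, 14.0%, 10.6% and 11.5% in 23-CATA, 22.9%, 15.1%, 13.0% and 12.8% in 23-Tet1 and 21.4%, 18.1%, 13.6% and 15.5% in 23-NC cells at days 0, 2, 4 and 6.

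**Figure D1:**
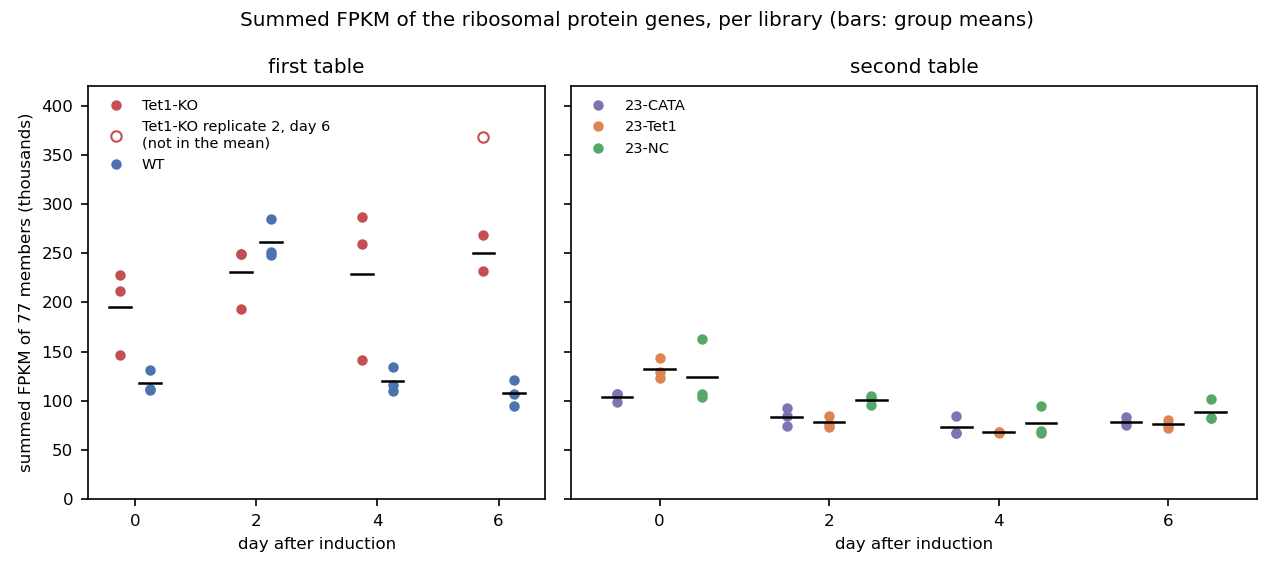
Summed FPKM of the members (in units of 1000) in each library by day, for Tet1-KO and WT cells (left) and 23-CATA, 23-Tet1 and 23-NC cells (right); points are libraries and bars group means. WT cells stand highest at day 2, Tet1-KO cells stay high at days 2 to 6, and the open circle is Tet1-KO day 6 replicate 2 at 368033.

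Changes of single members below are differences of mean log2(FPKM + 1) between 2 groups, given as the estimate ± SE after subtracting the median difference of all genes tested. A gene is called when its adjusted p from limma, fitted on the values as deposited and adjusted over all 11911 or 12231 genes tested, was under 0.05. That median was −0.39, −0.52 and −0.29 for WT cells at days 2, 4 and 6 against day 0, so the number of calls there depends on scaling. Counts after dividing libraries by median-ratio size factors are therefore given beside those as deposited. Shares of all genes are given for these 2 settings only. Counts from other fits, or at an unadjusted p, have no such share beside them and cannot be judged against all genes.

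Nearly the whole family was higher in WT cells at day 2, the end of induction, than at day 0. At that day, 74 of 77 members were called higher and 0 lower (23.6% and 49.6% of all genes tested), with 77 and 0 (34.5% and 35.5%) after scaling and 75 and 0 at an unadjusted p under 0.05. The median change was 1.43, and the 77 members ran from 0.73 (Rpl10) to 2.65 (Rplp2). With quantile normalisation, which gives every library the same set of values, 23 were called higher and the median was 0.16. All 77 members had higher FPKM in every day 2 library than in any day 0 library, a count that was not made over all genes. The small subunit had 29 of 31 called higher (median 1.43) and the large subunit 42 of 43 called higher (median 1.41).

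The steepest rise was that of the stalk protein Rplp2. With Rplp1 it forms the acidic dimers that, held by Rplp0, recruit elongation factors to the ribosome. Rplp2 had 12260.5, 10078 and 9163 FPKM at day 2, against 2441, 2053 and 2078 FPKM at day 0 in WT cells (2.65 ± 0.29, adjusted p = 1.5e-06). Rplp1 had 10213, 8601 and 8184 FPKM against 2688, 2160.2 and 2164 FPKM (2.34 ± 0.30, adjusted p = 1.1e-05), while Rplp0 changed less, with 2734, 2498 and 2636 FPKM against 1859, 1639 and 1644 FPKM (1.01 ± 0.20, adjusted p = 0.011). The 3 stalk genes were thus far apart in size of change. Each was higher as deposited and after scaling, but Rplp0 had a change of −0.36 with quantile normalisation. Rpl36, a large subunit protein, rose by 2.4 ± 0.26, adjusted p = 1.6e-06, and Rps2, a small subunit protein near the message entry channel, by 2.39 ± 0.24, adjusted p = 6.7e-07. Rps2 had 4395, 3831 and 3685 FPKM against 1127, 933 and 925 FPKM. Rpl10, which joins the large subunit late in its assembly, had the smallest change of the 77 and was not called (0.73 ± 0.18, adjusted p = 0.11), nor was Rps4x (0.90 ± 0.23, adjusted p = 0.054).

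By days 4 and 6 most members of WT cells were no longer called higher than at day 0. At day 4, 5 of 77 members were called higher and 7 lower (21.8% and 55.3% of all genes tested), with 44 and 0 (36.1% and 36.1%) after scaling. At day 6, 4 of 77 members were called higher and 11 lower (23.6% and 44.7% of all genes tested), with 8 and 1 (32.7% and 32.1%) after scaling. The median change was 0.50 at day 4 and 0.098 at day 6, but −0.54 and −0.46 with quantile normalisation. Members called in either direction as deposited were a smaller share than that of all genes on both days. At day 6 the median was 0.031 without day 6 replicate 2 and 0.17 without day 0 replicate 1. The count called lower at day 4 was 3 without day 0 replicate 1 and 4 without day 4 replicate 2 or 3, and at day 6 it was 7 without day 0 replicate 1 or day 6 replicate 3. Rplp2 stayed high, with 3874, 5485 and 3601 FPKM at day 6 (1.25 ± 0.29, adjusted p = 0.0065). Rpl9 (1.18 ± 0.19, adjusted p = 0.00044) also did. Rpl36 was called too (0.89 ± 0.26, adjusted p = 0.047), but that call was lost in 5 of the 6 fits with 1 library left out. Rpl12, which sits at the base of the stalk, fell to 1181, 964 and 883 FPKM at day 6, against 2205, 1907 and 1881 FPKM at day 0 (−0.70 ± 0.25, adjusted p = 0.0016). Members of 1 ribosome thus stood on both sides of their starting level at day 6 in the same 3 libraries.

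In Tet1-KO cells few members were called at any day against day 0 as deposited, and more were after scaling, mainly at days 4 and 6. At day 2, 5 of 77 members were called higher and 0 lower (14.8% and 23.4% of all genes tested), with 8 and 0 (18.3% and 19.0%) after scaling and 8 and 0 at an unadjusted p under 0.05. On day 4, 6 of 77 members were called higher and 1 lower (17.4% and 43.1% of all genes tested), with 27 and 0 (28.4% and 28.4%) after scaling. On day 6, with 2 libraries, 7 of 77 members were called higher and 0 lower (14.0% and 27.6% of all genes tested), with 20 and 0 (19.6% and 18.3%) after scaling and 15 and 1 at an unadjusted p under 0.05. The medians were 0.35, 0.38 and 0.49, but −0.24 and −0.085 at days 4 and 6 with quantile normalisation. As deposited, members called higher were a smaller share than that of all genes on each day, and after scaling a larger one at days 4 and 6. Without day 0 replicate 3 the medians were 0.13, 0.16 and 0.30, and without day 4 replicate 2 that of day 4 was 0.62. At day 2 the count was 3 without day 0 replicate 2 or 3 or day 2 replicate 2 or 3, and 8 without day 2 replicate 1. Day 4 depended on replicate 2: without it 29 members were called higher, and without day 0 replicate 3 it was 3. At day 6 the count was 0 without day 6 replicate 3, 1 without day 0 replicate 3 and 12 without day 0 replicate 2. Rpl30, Rpl9 and Rpl36 led the rises. Rpl30 had 224, 422 and 287 FPKM at day 2, against 155, 193 and 142 FPKM at day 0 (0.99 ± 0.19, adjusted p = 0.0013). Rpl9 had 3742, 3089.7 and 3213 FPKM at day 4 against 1948, 2240.3 and 1490.1 FPKM (1.13 ± 0.19, adjusted p = 0.001). Rplp2 had 6596 and 9575 FPKM in the 2 libraries of day 6 against 3955, 5097 and 2538 FPKM at day 0 (1.28 ± 0.32, adjusted p = 0.012), a call lost without day 0 replicate 3 or day 6 replicate 3.

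**Figure D2:**
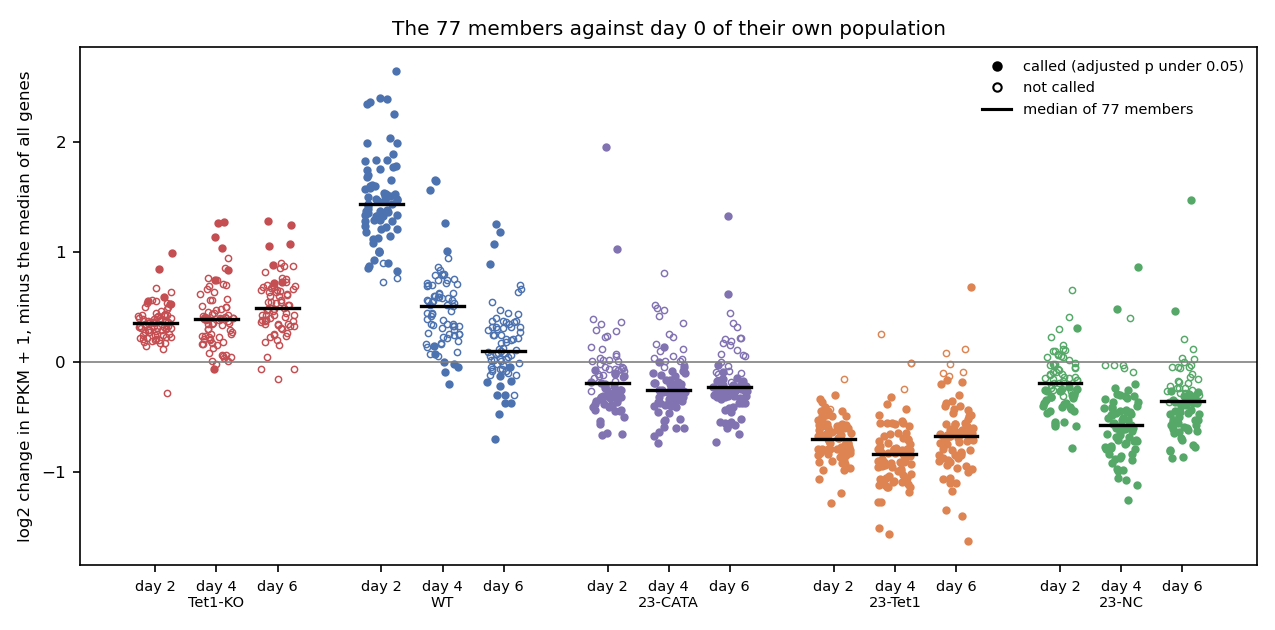
Change of each of the 77 members (points) at days 2, 4 and 6 against day 0 of the same population, as log2 change in FPKM + 1 minus the median of all genes; filled points were called at adjusted p under 0.05 and bars are medians. WT cells at day 2 have the highest median, 1.43, and 23-Tet1 cells have the lowest, −0.71, −0.84 and −0.67.

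Tet1-KO cells held more ribosomal protein message than WT cells before induction. At day 0, 49 of 77 members were called higher and 0 lower (12.5% and 20.7% of all genes tested), with 59 and 0 (16.2% and 14.3%) after scaling and 62 and 0 at an unadjusted p under 0.05. The median was 0.74, with all 77 members above the median of all genes. With quantile normalisation 14 were called higher and the median was 0.16. Rps2 had 2606, 2784 and 1734 FPKM in Tet1-KO cells and 1127, 933 and 925 FPKM in WT cells (1.32 ± 0.24, adjusted p = 0.00098). Rpl41, whose product is the shortest ribosomal protein, had 9092, 13482 and 6929.6 FPKM against 4795, 3799 and 3643 FPKM (1.32 ± 0.29, adjusted p = 0.0037). Rpl37a, a zinc-binding protein of the large subunit, had 2583, 3019 and 1464 FPKM against 1170.0, 917 and 908 FPKM (1.27 ± 0.31, adjusted p = 0.0071). In each of the 3 the groups did not overlap, and Tet1-KO replicate 3 was the lowest of its group. The call of Rpl37a was lost without Tet1-KO replicate 2. Without Tet1-KO replicate 1 the count fell to 21, without replicate 2 to 14, and without WT replicate 2 or 3 to 24. Adipocyte markers were not lower here: 2 of 10 were called higher in Tet1-KO cells, where the list summed to 282 to 468 FPKM against 103 to 247 FPKM.

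At day 2 the members were not higher in Tet1-KO cells, and most lay below the median of all genes. Against WT cells, 0 of 77 members were called higher and 5 lower (27.7% and 13.0% of all genes tested), with 0 and 16 (18.6% and 19.9%) after scaling and 1 and 9 at an unadjusted p under 0.05. The median was −0.29, and 0.12 with quantile normalisation, which turned its direction. As deposited the members called lower were a smaller share than that of all genes. Without Tet1-KO replicate 1 the median was −0.17. The largest differences were those of Rpl26, Rplp2 and Rpl36. Rplp2 had 4071, 6796 and 6052 FPKM in Tet1-KO and 12260.5, 10078 and 9163 FPKM in WT cells (−1.08 ± 0.29, adjusted p = 0.017). Rpl36 had 3301, 5559 and 4576 FPKM against 8948, 7892 and 7042 FPKM (−1.02 ± 0.26, adjusted p = 0.014). Rpl26, which contacts the ribosome near the exit tunnel, had 58.8, 182 and 111 FPKM against 285, 199.9 and 205 FPKM (−1.26 ± 0.34, adjusted p = 0.017). Each of these groups was separate, and each of the 3 calls was lost without Tet1-KO replicate 1 or WT replicate 1. Without Tet1-KO replicate 1 or WT replicate 1 only 1 member was called lower, and without Tet1-KO replicate 2 it was 8.

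At day 4 the family again stood higher in Tet1-KO cells. There, 61 of 77 members were called higher and 0 lower (19.2% and 12.3% of all genes tested), with 47 and 0 (16.2% and 18.3%) after scaling and 67 and 0 at an unadjusted p under 0.05. The median was 0.68. Rplp1 had 10069, 4519.8 and 11757 FPKM in Tet1-KO and 3206, 2804 and 2451 FPKM in WT cells (1.44 ± 0.30, adjusted p = 0.0012). Rps12 had 11572, 5343 and 14941 FPKM against 4000.1, 3429 and 3325 FPKM (1.36 ± 0.29, adjusted p = 0.0017). In both, Tet1-KO replicate 2 lay much nearer to the WT libraries than the other 2 did. That replicate also had the most Adipoq, the adipocyte hormone gene, of its group, with 3331 FPKM beside 1362 and 901 FPKM, against 4411, 4259 and 4049 FPKM in WT cells. A fit of these 2 groups alone, with no spread shared from other groups, called only 1 member higher. Without Tet1-KO replicate 1 the count was 36 and without replicate 3 it was 30.

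Day 6 gave the widest difference between the 2 populations. In all, 70 of 77 members were called higher and 0 lower (20.1% and 23.4% of all genes tested), with 70 and 0 (21.7% and 23.5%) after scaling and 72 and 0 at an unadjusted p under 0.05. The median was 1.14, over 2 Tet1-KO and 3 WT libraries. The groups did not overlap for 74 members, a count that was not made over all genes. The small subunit had 28 of 31 called higher (median 1.27), the large subunit 39 of 43 called higher (median 0.99) and the stalk 3 of 3. Rplp1 had 7816 and 8203 FPKM in Tet1-KO and 1764, 2023 and 1619 FPKM in WT cells (2.16 ± 0.33, adjusted p = 8.0e-05). Rpl12 had 3809 and 3948 FPKM against 1181, 964 and 883 FPKM (1.96 ± 0.28, adjusted p = 3.9e-05). Rpl41 had 12706 and 11142 FPKM against 3139, 3674 and 2766 FPKM (1.91 ± 0.32, adjusted p = 0.00018). With replicate 2 kept as an added library, 49 members were called higher.

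Single members are given by role for Tet1-KO against WT cells at day 6. Rpl5 and Rpl11, which with 5S RNA hold back the p53 inhibitor Mdm2 when assembly fails, were higher by 0.78 ± 0.20, adjusted p = 0.0044 and 0.90 ± 0.24, adjusted p = 0.0055, and the call of Rpl11 was lost without Tet1-KO replicate 3. Rps3, at the message entry channel and also a DNA repair protein, was higher by 1.23 ± 0.22, adjusted p = 0.00033. Rpsa, also known as a laminin receptor, was higher by 1.5 ± 0.25, adjusted p = 0.00016, and Rps27a, made as a fusion with ubiquitin, by 1.30 ± 0.30, adjusted p = 0.0023. Rpl3, at the peptidyl transferase centre, was higher by 1.09 ± 0.21, adjusted p = 0.0005, Rpl39, in the exit tunnel, by 1.38 ± 0.22, adjusted p = 0.00011 and Rps4x by 1.79 ± 0.26, adjusted p = 4.3e-05. Rps6, the target of S6 kinase, had 2027 and 2175 FPKM in Tet1-KO and 1438, 1873 and 1410.0 FPKM in WT cells and did not pass the test (0.43 ± 0.21, adjusted p = 0.1). Rpl29 was the member with the lowest change (−0.087), and Rpl9 (0.40) and Rpl26 (0.55) were not called either.

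Markers of fat cells and of their mesenchymal precursors also differed between Tet1-KO and WT cells, in the same directions at days 2, 4 and 6. Of 10 adipocyte markers, 9, 5 and 7 were called lower in Tet1-KO than in WT cells at days 2, 4 and 6, and 10, 10 and 6 of 10 mesenchymal markers were called higher. At day 6 the adipocyte list summed to 29679.8 to 31304 FPKM in Tet1-KO libraries against 64518 to 69156 FPKM in WT libraries. The mesenchymal list summed to 16994 to 17090.1 FPKM against 1769.6 to 3854 FPKM. At day 2, where the members leaned lower, the adipocyte list summed to 8445 to 49189 FPKM in Tet1-KO and 51371 to 67088 FPKM in WT libraries. The part of this in the members' values was not tested. In bulk RNA, fewer cells of a type and less RNA per cell cannot be told apart.

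Whether the day 6 change itself differed between the 2 populations was tested as an interaction. For Tet1-KO minus WT, 4 of 77 members were called higher and 0 lower (13.4% and 11.6% of all genes tested), with 0 and 0 (11.8% and 13.7%) after scaling and 18 and 0 at an unadjusted p under 0.05. Rpl12 had the largest difference (0.98 ± 0.37, adjusted p = 0.043), a call lost in 8 of the 11 fits with 1 library left out. The members called were a smaller share than that of all genes, as deposited and after scaling, while quantile normalisation called more members higher. With 1 library left out the count was 7 without Tet1-KO day 0 replicate 2, 2 without Tet1-KO day 6 replicate 1, 1 without Tet1-KO day 0 replicate 1 or WT day 6 replicate 1, and 0 without any other.

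**Figure D3:**
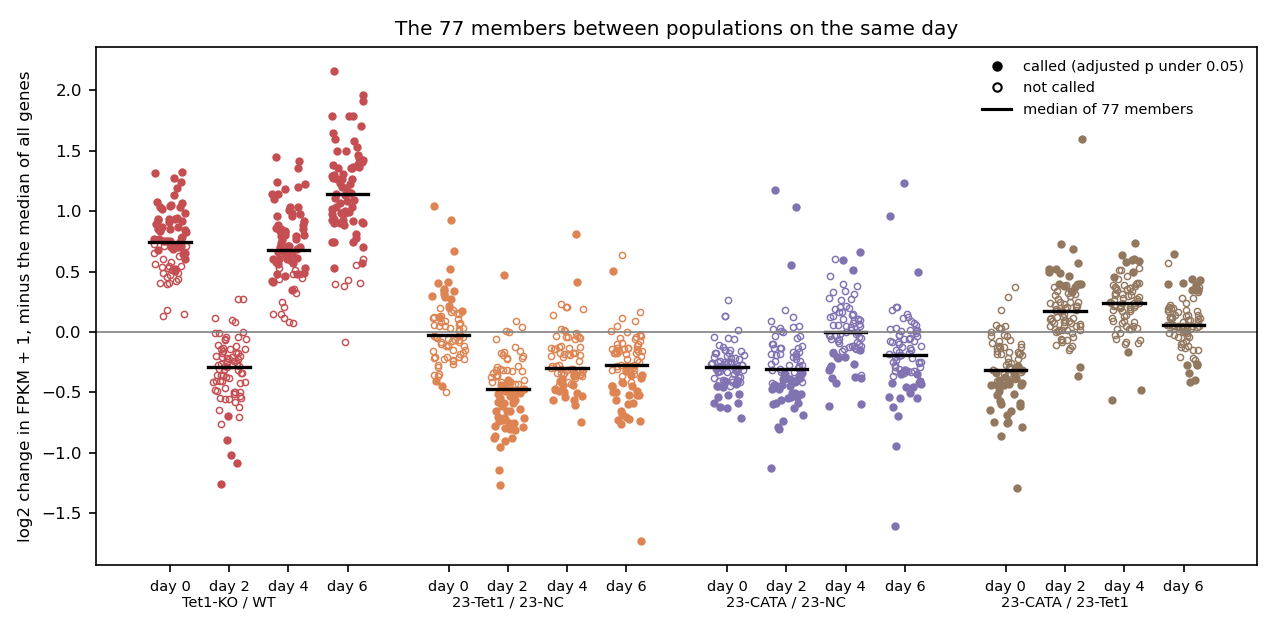
Difference of each of the 77 members (points) between 2 populations on the same day, as log2 difference in FPKM + 1 minus the median of all genes; filled points were called at adjusted p under 0.05 and bars are medians. Tet1-KO against WT has medians of 0.74, −0.29, 0.68 and 1.14 at days 0, 2, 4 and 6, and the comparisons within the second table stay between −0.47 and 0.24.

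In the second table the lowest medians against day 0 were those of 23-Tet1 cells, and there the members called lower were a larger share than that of all genes on every day. In 23-CATA cells 42 (45.2%), 59 (55.6%) and 54 (49.7%) of 77 members (and percent of all genes tested) were called lower at days 2, 4 and 6, and 19 (35.9%), 20 (39.4%) and 19 (37.6%) after scaling. In 23-Tet1 cells 75 (35.6%), 73 (40.6%) and 70 (44.7%) of 77 members (and percent of all genes tested) were called lower at days 2, 4 and 6, and 69 (30.3%), 72 (34.0%) and 62 (37.5%) after scaling. In 23-NC cells 27 (35.1%), 69 (42.1%) and 49 (40.5%) of 77 members (and percent of all genes tested) were called lower at days 2, 4 and 6, and 15 (29.3%), 62 (35.4%) and 38 (35.2%) after scaling. As a share of 77, the members called lower in 23-CATA cells lay above the percent of all genes as deposited and below it after scaling on each day. In 23-NC cells that share was the same as that of all genes at day 2, below it there after scaling, and above it at days 4 and 6 both ways. From 0 to 2 members were called higher in each of these comparisons, at an unadjusted p under 0.05 too, and 0 to 6 after scaling. The medians at days 2, 4 and 6 were −0.19, −0.25 and −0.23 in 23-CATA, −0.71, −0.84 and −0.67 in 23-Tet1 and −0.19, −0.58 and −0.36 in 23-NC cells. Without day 0 replicate 1 the 23-NC medians were 0.031, −0.38 and −0.14, so that of day 2 turned its direction, and without day 0 replicate 3 that of day 2 was −0.32. The 23-CATA medians were −0.11 and −0.29 at day 2 without day 2 replicate 1 or 3 and −0.38 at day 4 without day 4 replicate 3. For 23-NC the count was 7 at day 2 and 30 at day 6 without day 0 replicate 1, and 17 at day 2 without day 2 replicate 2. For 23-CATA it was 27 at day 2 without day 2 replicate 1.

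The size of the change differed from member to member. Rpl12 fell most in 23-Tet1 cells, with 971, 980.1 and 1045 FPKM at day 6 against 3291, 3176 and 3647 FPKM at day 0 (−1.64 ± 0.12, adjusted p = 7.0e-14). Rps12 (−1.40 ± 0.15, adjusted p = 2.0e-10) and Rps2 (−1.35 ± 0.13, adjusted p = 4.0e-11) followed. In 23-NC cells Rps20, of the head of the small subunit, fell most, with 63.0, 68.6 and 131 FPKM at day 4 against 320.5, 178 and 169 FPKM at day 0 (−1.26 ± 0.22, adjusted p = 2.2e-06). In 23-CATA cells Rpl3 had 696, 768 and 681 FPKM at day 6 against 1424, 1336 and 1397 FPKM (−0.74 ± 0.12, adjusted p = 1.8e-08). Unlike most members, Rpl26 rose in 23-CATA cells to 141, 133 and 234 FPKM at day 2, against 58.7, 55.8 and 30.7 FPKM at day 0 (1.95 ± 0.32, adjusted p = 1.0e-05). Rpl9 rose in 23-Tet1 cells to 1531, 1596 and 1704 FPKM at day 6, against 1079, 1029 and 1178 FPKM (0.67 ± 0.14, adjusted p = 0.00049). Both share most of their sequence with copies.

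Against 23-NC, 23-Tet1 cells had a larger share of members than of all genes called lower at day 2, and after scaling also at days 4 and 6. At day 0, 16 of 77 members were called higher and 2 lower (37.8% and 23.5% of all genes tested), with 8 and 5 (29.5% and 28.8%) after scaling. At day 2, 1 of 77 members were called higher and 43 lower (38.7% and 25.2% of all genes tested), with 1 and 53 (31.5% and 30.8%) after scaling. At day 4, 2 of 77 members were called higher and 17 lower (35.0% and 21.9% of all genes tested), with 1 and 33 (26.7% and 28.8%) after scaling. At day 6, 1 of 77 members were called higher and 25 lower (36.0% and 29.0% of all genes tested), with 1 and 29 (33.6% and 31.7%) after scaling. The medians at days 0, 2, 4 and 6 were −0.021, −0.47, −0.29 and −0.27. As deposited, the share of members called lower was near that of all genes at day 4 and slightly above it at day 6. At day 0 the share called higher was below that of all genes. The median lay between −0.11 and 0.22 at day 0 with 1 library left out, at −0.090 without 23-NC replicate 3 at day 4 and at −0.14 without 23-NC replicate 2 at day 6. The 0.22 was without 23-NC replicate 1. At day 0 the count called higher was 35 without 23-NC replicate 1, 7 without replicate 2 or 3 and 8 without 23-Tet1 replicate 3. At day 4 the count called lower was 6 without 23-NC replicate 3 and 26 without replicate 1, and at day 6 it was 15 without 23-NC replicate 2.

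Rpl22, a large subunit protein that in the mouse represses the message of its own paralog Rpl22l1, was called lower in 23-Tet1 cells at each day, though the groups overlapped at day 0. At day 2 Rpl22 had 101, 86.7 and 85.6 FPKM in 23-Tet1 and 207, 203 and 206 FPKM in 23-NC cells (−1.26 ± 0.12, adjusted p = 2.1e-09). Rplp2 had 1304, 1427 and 1309.8 FPKM against 2608, 2202 and 2533 FPKM (−0.95 ± 0.13, adjusted p = 1.5e-06). In both, all 23-Tet1 libraries lay below all 23-NC libraries. Rpl30, which in yeast also binds its own message, was called higher at every day, with 155, 138 and 153 FPKM in 23-Tet1 and 65.6, 65.0 and 118 FPKM in 23-NC cells at day 4 (0.81 ± 0.18, adjusted p = 8.0e-05). Rplp0, the other stalk gene, had 1896, 1937 and 1710.2 FPKM against 1749, 1676 and 1749 FPKM at day 2 and was not called (0.0028 ± 0.11, adjusted p = 0.46). At day 6 Rplp1 had 873, 901 and 1032 FPKM in 23-Tet1 and 1308, 1865 and 1387 FPKM in 23-NC cells (−0.74 ± 0.19, adjusted p = 0.0027). Rps19, mutated in Diamond-Blackfan anaemia in humans, had 505, 540.0 and 594 FPKM against 816, 1110.4 and 780.1 FPKM (−0.76 ± 0.18, adjusted p = 0.00084).

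Against 23-NC, 23-CATA cells had a larger share of members than of all genes called lower at days 0 and 2, as deposited and after scaling. Both ways, that share was smaller at days 4 and 6. With quantile normalisation, however, most members were called lower at days 4 and 6. At day 0, 0 of 77 members were called higher and 13 lower (31.6% and 11.7% of all genes tested), with 0 and 29 (21.4% and 18.1%) after scaling and 1 and 19 at an unadjusted p under 0.05. At day 2, 3 of 77 members were called higher and 31 lower (34.3% and 30.7% of all genes tested), with 3 and 39 (32.6% and 32.9%) after scaling. At day 4, 3 of 77 members were called higher and 15 lower (28.9% and 39.9% of all genes tested), with 8 and 6 (36.3% and 32.5%) after scaling. At day 6, 3 of 77 members were called higher and 17 lower (38.0% and 36.4% of all genes tested), with 3 and 14 (39.1% and 35.4%) after scaling. The medians were −0.29, −0.30, −0.00035 and −0.19 at days 0, 2, 4 and 6. That of day 0 was −0.082 without 23-NC replicate 1 and that of day 6 −0.088 without 23-NC replicate 2. At day 4 it lay between −0.14, without 23-CATA replicate 3, and 0.16, without 23-NC replicate 3. At day 0 the lowest was Rps10, of the small subunit head, with 2183, 2139 and 2197 FPKM in 23-CATA and 4249.6, 2957 and 2867 FPKM in 23-NC cells (−0.71 ± 0.11, adjusted p = 3.3e-05). At day 0 the count called lower was 3 without 23-NC replicate 1 and 21 without replicate 3, and a fit of those 2 groups alone called 0. At day 4 it was 6 without 23-NC replicate 3 and 7 without 23-CATA replicate 1 or 2. At day 2 it was 17 without 23-CATA replicate 1.

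Rpl22 was again among the lowest, with 84.0, 93.7 and 109.7 FPKM in 23-CATA and 207, 203 and 206 FPKM in 23-NC cells at day 2 (−1.13 ± 0.12, adjusted p = 5.9e-09). Rpl13 had 1855, 2130.1 and 2305 FPKM against 3813, 3338 and 3599 FPKM (−0.80 ± 0.12, adjusted p = 2.5e-06), and Rpl3 at day 6 696, 768 and 681 FPKM against 1076, 1285 and 1084 FPKM (−0.70 ± 0.12, adjusted p = 6.1e-06). In these 3 large subunit genes all 23-CATA libraries lay below all 23-NC libraries. Rps27l, Rpl30 and Rpl26 were called higher on more than 1 day. Rps27l, a p53-responsive paralog of Rps27, had 399.6, 433 and 403 FPKM in 23-CATA and 276, 329 and 264 FPKM in 23-NC cells at day 6 (0.50 ± 0.14, adjusted p = 0.0014). Rpl30 had 85.8, 103 and 105 FPKM against 51.3, 56.5 and 40.7 FPKM (0.96 ± 0.18, adjusted p = 1.3e-05), and Rpl26 83.4, 126 and 97.6 FPKM against 51.9, 41.0 and 34.5 FPKM (1.23 ± 0.32, adjusted p = 0.0008).

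Rps27 and its paralog Rps27l differed in opposite directions between 23-CATA and 23-NC cells at day 6. In the change of day 6 against day 0 for 23-Tet1 minus 23-NC, both were called lower. Rps27 was at −1.39 ± 0.25, adjusted p = 1.5e-05 and Rps27l at −0.70 ± 0.19, adjusted p = 0.0016. At day 6 Rps27 had 8.75, 8.90 and 7.53 FPKM in 23-CATA, 6.76, 10.1 and 6.87 FPKM in 23-Tet1 and 29.7, 32.3 and 21 FPKM in 23-NC cells. All 3 libraries of 23-NC lay above all others. The difference from 23-NC was −1.61 ± 0.18, adjusted p = 3.5e-09 for 23-CATA and −1.73 ± 0.18, adjusted p = 2.0e-09 for 23-Tet1, and both share the 23-NC libraries. Rps27rt, which holds nearly all of the reads of this pair, had 2075, 2459.8 and 2308 FPKM in 23-CATA, 1867, 2243 and 2204 FPKM in 23-Tet1 and 2534, 3019 and 2546 FPKM in 23-NC cells. Since 98.6% of the Rps27 words occur elsewhere, the Rps27 values are uncertain.

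**Figure D4:**
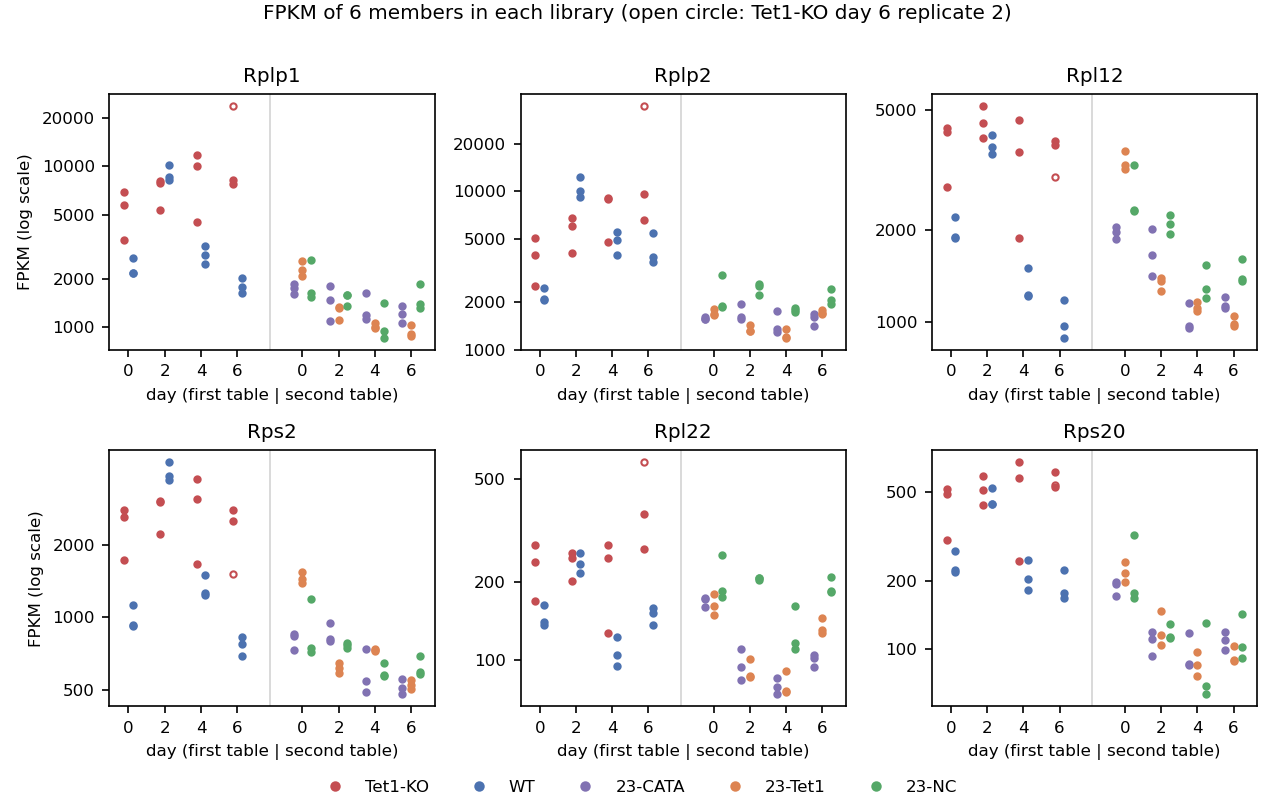
FPKM (log scale) of 6 members in each library by day, with Tet1-KO and WT cells left and 23-CATA, 23-Tet1 and 23-NC cells right of the grey line in each panel; the open circle is Tet1-KO day 6 replicate 2. Rplp1, Rpl12, Rps2 and Rps20 stay high in Tet1-KO cells at day 6 while WT cells are low, and Rpl22 is lower in 23-CATA and 23-Tet1 than in 23-NC cells from day 2 on.

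In 23-CATA cells the family was lower than in 23-Tet1 cells at day 0, and its medians were above 0 at later days as deposited but not with quantile normalisation. At day 0, 0 of 77 members were called higher and 32 lower (32.9% and 31.3% of all genes tested), with 0 and 32 (32.4% and 31.2%) after scaling and 1 and 36 at an unadjusted p under 0.05. At day 2, 15 of 77 members were called higher and 2 lower (30.3% and 37.1% of all genes tested), with 23 and 1 (34.1% and 32.6%) after scaling. At day 4, 8 of 77 members were called higher and 3 lower (27.6% and 46.6% of all genes tested), with 40 and 1 (39.0% and 33.9%) after scaling. At day 6, 8 of 77 members were called higher and 6 lower (31.9% and 33.8% of all genes tested), with 12 and 2 (36.4% and 30.2%) after scaling. The medians were −0.31, 0.18, 0.24 and 0.059 at days 0, 2, 4 and 6, and −0.092, −0.040, −0.35 and −0.17 with quantile normalisation. Members called higher were a smaller share than that of all genes at days 2, 4 and 6 as deposited, and a larger one at day 4 after scaling. Without 23-CATA replicate 3 the median was 0.093 at day 2 and 0.13 at day 4, and at day 6 it lay between 0.027, without 23-CATA replicate 2, and 0.12, without 23-Tet1 replicate 3. Rps2 had 837, 731 and 857 FPKM in 23-CATA and 1389.9, 1542 and 1446 FPKM in 23-Tet1 cells at day 0 (−0.86 ± 0.13, adjusted p = 2.3e-06). At day 2 it had 814, 949 and 796 FPKM against 646, 616 and 589 FPKM (0.52 ± 0.13, adjusted p = 0.0032). Rpl12 had 1971, 1869.6 and 2049 FPKM against 3291, 3176 and 3647 FPKM at day 0 (−0.79 ± 0.12, adjusted p = 2.2e-06). At day 4 the count called higher was 2 without 23-CATA replicate 3, and at day 2 it was 9 without 23-CATA replicate 3. At day 6 it was 3 without 23-Tet1 replicate 1 or 2 or without 23-CATA replicate 2, and 4 without 23-CATA replicate 3.

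The change of day 6 against day 0 was also tested for a difference between populations. For 23-Tet1 minus 23-NC, 0 of 77 members were called higher and 20 lower (29.1% and 32.3% of all genes tested), with 0 and 14 (31.7% and 29.1%) after scaling and 0 and 23 at an unadjusted p under 0.05. Rps2 (−0.96 ± 0.19, adjusted p = 4.5e-05), Rplp1 (−0.94 ± 0.27, adjusted p = 0.0027), Rpsa (−0.93 ± 0.19, adjusted p = 4.7e-05) and Rpl12 (−0.86 ± 0.17, adjusted p = 4.7e-05) fell further in 23-Tet1 cells. Rps12 (−0.88 ± 0.21, adjusted p = 0.00046) was called lower too, as was Rps27 (−1.39 ± 0.25, adjusted p = 1.5e-05), whose values are uncertain. The members called lower were a smaller share than that of all genes, as deposited and after scaling, while quantile normalisation called more members lower. The count rose to 50 without 23-NC day 0 replicate 1 and fell to 11 without 23-NC day 0 replicate 2 or 3 or day 6 replicate 2, to 12 without 23-Tet1 day 0 replicate 3 and to 13 without 23-Tet1 day 6 replicate 1. For 23-CATA minus 23-NC, 6 of 77 members were called higher and 3 lower (27.5% and 36.0% of all genes tested), with 10 and 3 (33.4% and 30.3%) after scaling. Rpl26 (1.48 ± 0.45, adjusted p = 0.0079) stood on one side and Rps27 (−1.63 ± 0.25, adjusted p = 8.9e-07) and Rpl22 (−0.58 ± 0.17, adjusted p = 0.0015) on the other. Members called either way were a smaller share than that of all genes, as deposited and after scaling. There the count called higher was 3 without 23-NC day 0 replicate 1 and 10 without replicate 3, and the median of 0.15 became −0.095 without replicate 1 and −0.33 with quantile normalisation.

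Marker levels differed between the populations of the second table too. All 10 adipocyte markers were called higher in 23-CATA than in 23-NC cells at each day. At day 0 the list summed to 2521 to 2688 FPKM in 23-CATA, 31.1 to 44.0 FPKM in 23-Tet1 and 66.2 to 74.4 FPKM in 23-NC libraries. At day 6 it summed to 55648 to 57061 FPKM in 23-CATA, 50770.2 to 58656 FPKM in 23-Tet1 and 10668 to 12073 FPKM in 23-NC libraries. The mesenchymal list summed at day 6 to 2750.4 to 2831 FPKM in 23-CATA, 2509 to 2524 FPKM in 23-Tet1 and 5217 to 5319.7 FPKM in 23-NC libraries. Retn was listed at 0 in all 3 libraries of 23-Tet1 and of 23-NC at day 0. The part of these markers in the members' values was not tested.

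The rest of the translation machinery did not always follow the members. Of 40 ribosome biogenesis genes tested, 36 were called higher in WT cells at day 2 against day 0 and 1 lower, and 35 and 0 in Tet1-KO cells, where 5 of 77 members were (0 of the 40 were lower at an unadjusted p under 0.05 too). Those 5 members were a smaller share than that of all genes. Against WT, Tet1-KO cells had 15 biogenesis genes lower and 0 higher at day 2 (19 and 1 at an unadjusted p under 0.05, 22 and 0 after scaling), and 13 higher and 2 lower at day 6. Nop56, a core protein of box C/D ribonucleoproteins, differed by 1.76 ± 0.25, adjusted p = 3.6e-05 at day 6. In 23-Tet1 cells at day 0, 38 of 40 were higher than in 23-NC cells and 0 lower (38 and 0 at an unadjusted p under 0.05, 35 and 0 after scaling), led by Dkc1, the pseudouridine synthase dyskerin (1.69 ± 0.08, adjusted p = 3.2e-17). In 23-CATA cells at day 6, 34 were higher than in 23-NC and 2 lower, while 3 members were higher and 17 lower. Both of those member counts were a smaller share than that of all genes. The medians of the biogenesis list were 0.63 and 0.53 in these 2 comparisons, and those of the members −0.021 and −0.19. In each comparison given here the larger of the biogenesis counts was a larger share than that of all genes, as deposited.

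Genes for initiation and elongation factors were counted the same way. Of 24 tested, 16 were higher and 2 lower in WT cells at day 2, and 10 higher and 0 lower in Tet1-KO against WT cells at day 6 (11 and 2 at an unadjusted p under 0.05, 9 and 0 after scaling). In 23-Tet1 cells 21 were lower and 1 higher at day 6 against day 0. Of 19 other TOP messages tested, such as Eef1b2, a subunit of the elongation factor that reloads eEF1A with GTP, 10 were higher and 2 lower in Tet1-KO than in WT cells at day 6. Eef1b2 itself differed by 1.56 ± 0.26, adjusted p = 0.00018. In 23-Tet1 cells 17 of the 19 were lower at day 2 and at day 4 against day 0, and 0 higher, also at an unadjusted p under 0.05 or after scaling, beside 75 and 73 of the 77 members. For both lists, the larger count in each of these comparisons was a larger share than that of all genes, as deposited.

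Myc had 18.8, 15.2 and 18.0 FPKM in Tet1-KO and 32.5, 34.5 and 35.3 FPKM in WT cells at day 0 (−0.85 ± 0.25, adjusted p = 0.0076), where the members were higher. At day 2 Myc had 34.9, 81.5 and 38.2 FPKM against 91.1, 88.5 and 106 FPKM (−1.14 ± 0.25, adjusted p = 0.0052). In WT cells it rose at day 2 together with the members (1.84 ± 0.25, adjusted p = 3.5e-05). It rose in Tet1-KO cells too (1.52 ± 0.25, adjusted p = 0.00028). Of 16 genes of growth control, which hold Myc, its partners and mTOR pathway members, 6 were higher and 5 lower in WT cells at day 2, and 2 higher and 7 lower in Tet1-KO than in WT cells at day 6. In WT cells the 6 were a larger and the 5 a smaller share than that of all genes. For Tet1-KO against WT the 2 were a smaller and the 7 a larger share.

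Ribosomal protein genes outside the naming rule were read separately. Fau, which encodes a ubiquitin-like protein joined to a small subunit protein, rose in WT cells at day 2 (1.47 ± 0.26, adjusted p = 0.00099). At day 6 Fau was higher in Tet1-KO than in WT cells (0.96 ± 0.29, adjusted p = 0.012). Rpl22l1, which Rpl22 represses in the mouse, had 642 and 591 FPKM in Tet1-KO and 171, 213 and 173 FPKM in WT cells at day 6 (1.74 ± 0.25, adjusted p = 4.2e-05), so both paralogs were higher in Tet1-KO cells. Rpl36al, a copy of Rpl36a, differed by 1.23 ± 0.25, adjusted p = 0.00074. In 23-CATA cells at day 2 Rpl22l1 had 149.9, 179 and 227 FPKM against 90.2, 93.6 and 110.0 FPKM in 23-NC cells (0.87 ± 0.23, adjusted p = 0.0012), and there Rpl22 was lower. In 23-Tet1 cells at day 2 it had 157, 101 and 116 FPKM (0.23 ± 0.23, adjusted p = 0.22).

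Tet1-KO day 6 replicate 2 did not share the proportions of the other libraries. Its members summed to 368033 FPKM, 34.7% of its total, against 231800 and 268965 in replicates 1 and 3. Rpl41 stood at 64292 FPKM, beside 12706 and 11142 FPKM. Rpl37a stood at 21600 FPKM, beside 2923 and 3509 FPKM, while Rpl29 stood at 21.4 FPKM, beside 311 and 280.3 FPKM. Of the 77 members, 11 were more than 1 log2 unit above the mean of the other 2 libraries and 29 more than 1 below. The SD over members of that difference was 1.41, against 0.34 for replicate 3 minus replicate 1. These values describe 1 library and were not tested.

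**Figure D5:**
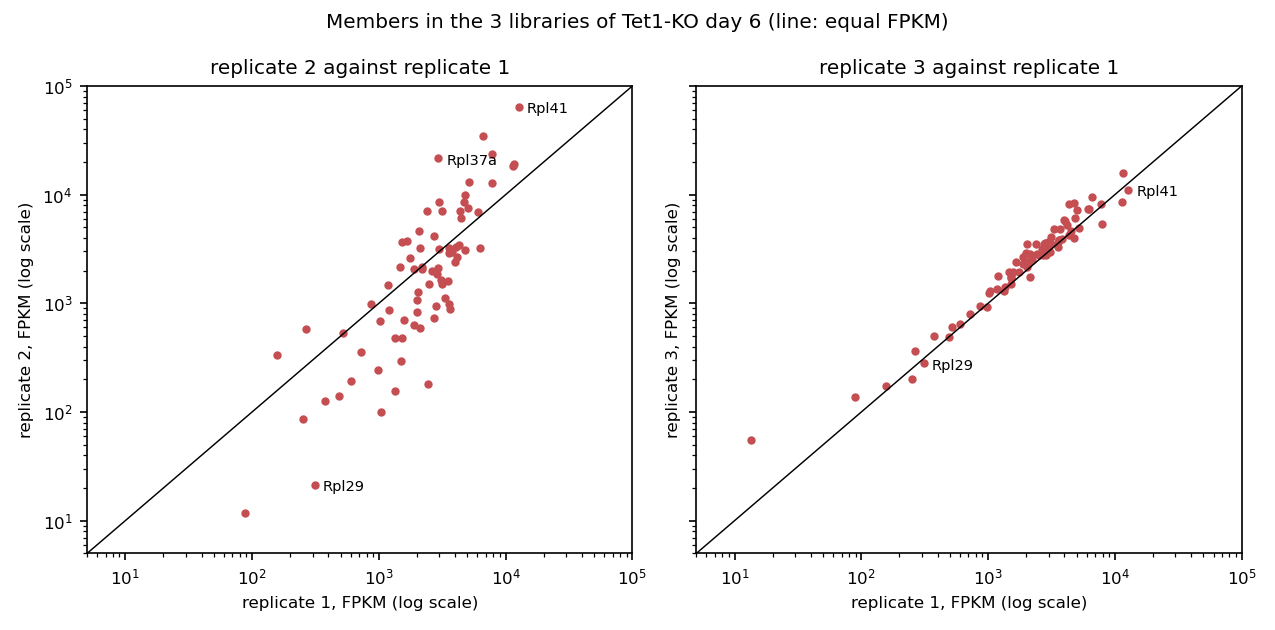
FPKM of the 77 members in Tet1-KO day 6 replicate 2 (left) and replicate 3 (right) against replicate 1, on log axes, with a line of equal values. Replicate 3 follows the line (SD of the log2 difference 0.34) and replicate 2 scatters around it (SD 1.41), with Rpl41 and Rpl37a above and Rpl29 below.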

How the data were processed

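Polyadenylated RNA from 60 libraries of C3H10T1/2 cells was sequenced by the authors. The deposited values are FPKM per gene in 2 tables of 24982 genes each, made with STAR 2.4.1a and RSEM on mm10, per the submitters' processing notes. How fragments shared between gene copies were divided is not given in the sources used here. FPKM of the 82 members were taken as deposited, with a filter of 1 FPKM in 3 libraries of a table, and tested as log2(FPKM + 1), which understates changes of low genes. All groups of a table entered 1 limma fit (limma 3.58.1, R 4.3.3, trend on the mean), with Benjamini-Hochberg adjustment over all genes tested, and a gene was called at an adjusted p under 0.05. The adjusted p tests the difference as deposited, while printed changes have the median of all genes subtracted. Tet1-KO day 6 replicate 2 was left out. The fit was tested on simulated data. Groups follow the sample titles, since the genotype tag of some 23-Tet1 libraries counts upward and differs from the title. Tests for one table used only that table. Named genes were a fixed list of 23 symbols plus up to 3 called members each way per comparison with a mean of at least 5 FPKM, and up to 2 genes each way of each other list; others named for a sequence, a marker role or a library that stands apart were chosen after their values were seen. A few genes are counted among the members or lists but not reported here by name. The members and lists were chosen with earlier results of these data known. Alternatives were the pseudocount, the filter, 2 scalings, the groups fitted, a replicate block and leaving out each library. Numbers that match across groups pair the libraries in 1 of 16 comparisons by their residuals (23-CATA against 23-NC at day 4), where the block changed no count. Sequences are from RefSeq (GRCm38.p6) and gene positions from GENCODE M21 (GRCm38), the assembly also called mm10; shared sequence was counted over 50-base words of its transcripts.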

Additional observations from a re-analysis of the deposited data

Results flagged for a closer look

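The change of day 6 against day 0 differed between populations for some members, by an interaction term in the limma fit. For Tet1-KO minus WT, 4 of 77 members were called higher, against 13.4% of all genes, and 0 were after median-ratio scaling. Rpl12 was among them (0.98, adjusted p = 0.043), a call lost in 8 of the 11 fits with 1 library left out. Rpl12 fell in WT cells over those days, and Tet1-KO cells had 3809 and 3948 FPKM at day 6 and 4341, 4218 and 2780.1 FPKM at day 0.

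For 23-Tet1 minus 23-NC, 20 of 77 members were called lower, against 32.3% of all genes. Among them were Rps27 (−1.39), Rps2 (−0.96), Rplp1 (−0.94), Rpsa (−0.93), Rps12 (−0.88) and Rpl12 (−0.86). For 23-CATA minus 23-NC, 6 of 77 members were called higher and 3 lower, against 27.5% and 36.0% of all genes, with Rpl26 at 1.48, Rps27 at −1.63 and Rpl22 at −0.58. In each of the 3 comparisons the members' share lay below that of all genes, as deposited and after median-ratio scaling. Quantile normalisation called more members in the first 2 comparisons. The last 2 share the 23-NC libraries, of which day 0 replicate 1 stood above the other 2 in summed FPKM (163191 against 106474 and 103775), and its part in these counts was measured by leaving it out: 50 members were then lower for 23-Tet1 minus 23-NC, and 3 higher for 23-CATA minus 23-NC.

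Tet1-KO day 6 replicate 2, used in no comparison, held 368033 FPKM in the members. Rpl41 had 64292 FPKM, Rpl37a 21600 FPKM and Rplp2 34782 FPKM there, each above all other libraries of the first table. The cause was not tested.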

How the results depend on the processing

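The medians of Tet1-KO against WT at days 0, 4 and 6, of WT at day 2 against day 0 and of 23-Tet1 at each later day against day 0 kept their sign under each alternative tried. Below, counts are of members called in the more frequent direction, a population with a day stands for that day against day 0, and comparisons not listed kept their count within 1.5 times. The cause of each shift was not tested, and the share of all genes called is not given beside these counts. Keeping Tet1-KO day 6 replicate 2 gave counts of called members of 21 for Tet1-KO against WT at day 0, 1 for Tet1-KO against WT at day 2, 35 for Tet1-KO against WT at day 4, 3 for WT day 4, 6 for WT day 6, 2 for Tet1-KO day 2, 3 for Tet1-KO day 4 and 15 for Tet1-KO day 6. Keeping Tet1-KO day 6 replicate 2 gave ratios of summed FPKM of 2.69 for Tet1-KO against WT at day 6. Fitting only the groups compared gave counts of called members of 3 for Tet1-KO against WT at day 2, 1 for Tet1-KO against WT at day 4, 3 for 23-Tet1 against 23-NC at day 0, 0 for 23-CATA against 23-NC at day 0, 7 for 23-CATA against 23-NC at day 4, 27 for 23-CATA against 23-NC at day 6, 18 for 23-CATA against 23-Tet1 at day 6, 18 for WT day 4, 19 for WT day 6, 1 for Tet1-KO day 2, 2 for Tet1-KO day 4, 0 for Tet1-KO day 6, 6 for 23-NC day 2, 38 for 23-NC day 4, 25 for 23-NC day 6, 9 for Tet1-KO minus WT in the day 6 change and 11 for 23-Tet1 minus 23-NC in the day 6 change. Median-ratio scaling gave counts of called members of 16 for Tet1-KO against WT at day 2, 8 for 23-Tet1 against 23-NC at day 0, 33 for 23-Tet1 against 23-NC at day 4, 29 for 23-CATA against 23-NC at day 0, 6 for 23-CATA against 23-NC at day 4, 23 for 23-CATA against 23-Tet1 at day 2, 40 for 23-CATA against 23-Tet1 at day 4, 0 for WT day 4, 1 for WT day 6, 8 for Tet1-KO day 2, 27 for Tet1-KO day 4, 20 for Tet1-KO day 6, 15 for 23-NC day 2, 19 for 23-CATA day 2, 20 for 23-CATA day 4, 19 for 23-CATA day 6, 0 for Tet1-KO minus WT in the day 6 change and 10 for 23-CATA minus 23-NC in the day 6 change. Median-ratio scaling gave ratios of summed FPKM of 0.761 for Tet1-KO against WT at day 2, 0.712 for 23-Tet1 against 23-NC at day 2 and 1.29 for 23-CATA against 23-Tet1 at day 4. Quantile normalisation gave counts of called members of 14 for Tet1-KO against WT at day 0, 22 for 23-CATA against 23-NC at day 0, 59 for 23-CATA against 23-NC at day 4, 58 for 23-CATA against 23-NC at day 6, 2 for 23-CATA against 23-Tet1 at day 4, 3 for 23-CATA against 23-Tet1 at day 6, 23 for WT day 2, 62 for WT day 4, 53 for WT day 6, 2 for Tet1-KO day 6, 25 for Tet1-KO minus WT in the day 6 change, 38 for 23-Tet1 minus 23-NC in the day 6 change and 2 for 23-CATA minus 23-NC in the day 6 change. Quantile normalisation gave medians of 0.16 for Tet1-KO against WT at day 0, 0.61 for Tet1-KO against WT at day 6, −0.15 for 23-Tet1 against 23-NC at day 2, −0.36 for 23-CATA against 23-NC at day 4, −0.34 for 23-CATA against 23-NC at day 6, −0.092 for 23-CATA against 23-Tet1 at day 0, 0.16 for WT day 2, −0.36 for 23-Tet1 day 2, −0.53 for 23-Tet1 day 4, −0.54 for 23-Tet1 day 6, −0.73 for 23-CATA day 4 and −0.52 for 23-CATA day 6. It reversed the medians to 0.12 for Tet1-KO against WT at day 2, −0.040 for 23-CATA against 23-Tet1 at day 2, −0.35 for 23-CATA against 23-Tet1 at day 4, −0.17 for 23-CATA against 23-Tet1 at day 6, −0.54 for WT day 4, −0.46 for WT day 6, −0.24 for Tet1-KO day 4, −0.085 for Tet1-KO day 6 and −0.33 for 23-CATA minus 23-NC in the day 6 change. No filter on low values gave counts of called members of 3 for 23-CATA against 23-Tet1 at day 6, 3 for Tet1-KO day 6 and 0 for Tet1-KO minus WT in the day 6 change. No filter on low values gave medians of −0.36 for 23-Tet1 against 23-NC at day 2, 1.08 for WT day 2, 0.068 for WT day 4, −0.91 for 23-Tet1 day 4, −0.79 for 23-Tet1 day 6, −0.53 for 23-CATA day 4 and −0.41 for 23-CATA day 6. It reversed the median to −0.15 for WT day 6. A pseudocount of 0.1 FPKM gave counts of called members of 2 for Tet1-KO minus WT in the day 6 change. The fit with the replicate number as a block gave counts of called members of 0 for Tet1-KO minus WT in the day 6 change. For single members, quantile normalisation reversed Rplp0 (−0.36), Rpl10 (−0.65) and Rps4x (−0.50) in WT at day 2 and Rps6 (−0.19) in Tet1-KO against WT at day 6. Rplp0 in 23-Tet1 against 23-NC at day 2, whose difference was near 0, became −0.019 with a pseudocount of 0.1 FPKM and −0.020 with median-ratio scaling and, with 1 library left out, between −0.042 and 0.058. Of 885 refits of the 68 single values named, 828 kept direction and call, 43 lost the call, 5 gained one and 9 reversed. Leaving out 1 library at a time gave counts of 14 to 65 for Tet1-KO against WT at day 0, 1 to 8 for Tet1-KO against WT at day 2, 30 to 71 for Tet1-KO against WT at day 4, 7 to 35 for 23-Tet1 against 23-NC at day 0, 6 to 26 for 23-Tet1 against 23-NC at day 4, 15 to 27 for 23-Tet1 against 23-NC at day 6, 3 to 21 for 23-CATA against 23-NC at day 0, 17 to 37 for 23-CATA against 23-NC at day 2, 6 to 17 for 23-CATA against 23-NC at day 4, 9 to 17 for 23-CATA against 23-Tet1 at day 2, 2 to 9 for 23-CATA against 23-Tet1 at day 4, 3 to 8 for 23-CATA against 23-Tet1 at day 6, 3 to 7 for WT day 4, 7 to 10 for WT day 6, 3 to 8 for Tet1-KO day 2, 3 to 29 for Tet1-KO day 4, 0 to 12 for Tet1-KO day 6, 7 to 39 for 23-NC day 2, 30 to 59 for 23-NC day 6, 27 to 51 for 23-CATA day 2, 0 to 7 for Tet1-KO minus WT in the day 6 change, 11 to 50 for 23-Tet1 minus 23-NC in the day 6 change and 3 to 10 for 23-CATA minus 23-NC in the day 6 change, and, where they turned or moved by over 1.5 times or by more than the spread, medians of −0.43 to −0.17 for Tet1-KO against WT at day 2, −0.11 to 0.22 for 23-Tet1 against 23-NC at day 0, −0.38 to −0.090 for 23-Tet1 against 23-NC at day 4, −0.32 to −0.14 for 23-Tet1 against 23-NC at day 6, −0.41 to −0.082 for 23-CATA against 23-NC at day 0, −0.14 to 0.16 for 23-CATA against 23-NC at day 4, −0.27 to −0.088 for 23-CATA against 23-NC at day 6, −0.36 to −0.23 for 23-CATA against 23-Tet1 at day 0, 0.093 to 0.25 for 23-CATA against 23-Tet1 at day 2, 0.13 to 0.31 for 23-CATA against 23-Tet1 at day 4, 0.027 to 0.12 for 23-CATA against 23-Tet1 at day 6, 0.031 to 0.17 for WT day 6, 0.13 to 0.50 for Tet1-KO day 2, 0.16 to 0.62 for Tet1-KO day 4, 0.30 to 0.63 for Tet1-KO day 6, −0.32 to 0.031 for 23-NC day 2, −0.74 to −0.38 for 23-NC day 4, −0.48 to −0.14 for 23-NC day 6, −0.91 to −0.79 for 23-Tet1 day 4, −0.29 to −0.11 for 23-CATA day 2, −0.38 to −0.18 for 23-CATA day 4, 0.20 to 0.61 for Tet1-KO minus WT in the day 6 change, −0.48 to −0.14 for 23-Tet1 minus 23-NC in the day 6 change and −0.095 to 0.25 for 23-CATA minus 23-NC in the day 6 change. Summed FPKM ratios kept within the spread with any 1 library left out and without Rpl41. Same-numbered libraries of the compared groups did not deviate together (residual correlations from −0.25 to 0.37 over 16 comparisons, all 3 pairs above 0.1 in 1), and the replicate block moved 1 of 34 counts, the last value above for the block. Depth was known only from the spacing of low values, so no count model was run, and levels of Rps27 near those of low genes are the least precise.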
